A study of Homo sapiens with 12 samples.

Results

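Homologous recombination and Fanconi repair genes were followed through RNA sequencing of PC3 cells, an established human prostate cancer line. The 39 genes were taken by name and set among the 43613 genes of the table. They hold 3 kinases that sense damage, 6 genes of DNA end resection, 4 of the BRCA complexes, 7 genes of DNA strand exchange, 7 genes that undo joined DNA molecules, 8 of the Fanconi core complex, 3 of its FANCD2, FANCI and BRIP1 arm, and POLQ. The cells were labelled wild type and had received silver nanoparticles (AgNPs), DOC, both agents together (COM), or PBS (BLANK), with 3 libraries in each group. DOC is given only as an abbreviation, and the labels state no dose, exposure time or batch. Nothing says that the libraries of a group came from separate cultures, so p-values measure the spread between these libraries, which may be technical.

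Homologous recombination mends a broken chromosome by copying the sister DNA molecule, which limits it to the cell cycle phases after replication has begun. MRE11, RAD50 and NBN find the break, nucleases trim its ends, BRCA1, PALB2 and BRCA2 set up the protein filament that searches for the copy, and helicases and nucleases separate the joined molecules afterwards. The Fanconi pathway opens crosslinks between the strands at stalled replication forks: a core complex adds ubiquitin to FANCD2 and FANCI, which brings in nucleases and the recombination proteins. Tumours that lose these genes become sensitive to crosslinking drugs and to inhibitors of PARP, and such losses are well known in advanced prostate cancer.

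Counts summed over linear transcripts came to between 13049868 and 13362290 per library in AgNPs, 18603100 and 19421873 in DOC, 10996446 and 11069928 in COM, and 22573481 and 22769479 in BLANK, so depth differed with the group. All 39 genes were well above the detection limit, and the lowest count of any of them in any library was 50. DOC replicate 1 and BLANK replicate 1 stood apart from the other libraries of their groups, with a chi-square per degree of freedom of 4.43 and 4.76 for the pairs with DOC replicate 1 and of 3.45 and 3.7 for those with BLANK replicate 1. All other pairs within a group lay between 1.46 and 1.99. Of 6 epithelial markers KRT8, KRT18, KRT19 and HOXB13 were abundant in BLANK, while EPCAM had 245 to 274 counts and CDH1 56 to 67 counts. Of the luminal markers TMPRSS2 was at 0, FOLH1 had 0 to 2 counts and ACP3 had 36 to 45 counts there.

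Silver nanoparticles moved a minority of the repair genes, and in both directions. BRCA1, EME1 and RAD51AP1 rose, whereas 8 of the 39 genes fell by 10.3 to 15.8%: ATR, CHEK1, RAD50, NBN, DNA2, BARD1, XRCC3 and FANCA (edgeR quasi-likelihood test with a Benjamini-Hochberg threshold of 0.05). Over the 19986 genes tested 14.9% rose and 16% fell, so the 3 higher genes were a smaller share of the list than of all genes, and the 8 lower ones a slightly larger share. The median log2 change was -0.04 over the 39 genes and 0.01 over all genes. There were 3 higher and 5 lower genes without BLANK replicate 1 and also without AgNPs replicate 1, and 1 higher and 7 lower genes at equal depth, that is with every library thinned to the smallest.

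DOC lowered 13 of the 39 genes by edgeR, against 9.81% lower and 7.16% higher over all genes tested. It raised 0 by edgeR, DESeq2 and limma-trend. The falls were small, between 9.38 and 16%, and the median log2 change was -0.10, against 0.00 over all genes. The genes were MRE11, NBN, EXO1, BRCA1, BRCA2, RAD51D, XRCC3, RAD54B, RMI1, FANCG, FANCD2, FANCI and BRIP1. In all, 20 of the 39 had an unadjusted p below 0.05, against 29.8% of all genes. The count was 8 without BLANK replicate 3 and also 8 without DOC replicate 2, and it was 12 without DOC replicate 1 and 10 without BLANK replicate 1. DESeq2, limma-trend and RefSeq transcripts alone each gave 8, and libraries thinned to equal depth gave 4.

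The combination lowered 22 of the 39 genes by 7.64 to 29.8% and raised BRCA1 alone, while over all genes tested 24.5% fell and 25.1% rose. The median log2 change of the 39 genes was -0.20, against 0.03 over all genes. CPM are a gene's counts scaled to 1 common library total. Mean CPM were lower in COM than in BLANK for 35 of the 39 genes, and COM had the lowest mean of the 4 groups for 27. Neither count was made over all genes. All 8 genes that fell after AgNPs also fell after COM, as did 8 of the 13 that fell after DOC. The exceptions were BRCA1, which rose, and FANCD2, RAD51D, RAD54B and RMI1, which did not pass. Of these, FANCD2, RMI1 and RAD51D were lower after COM and missed the threshold narrowly (log2 -0.09, -0.16 and -0.22, edgeR adjusted p = 0.053, 0.0556 and 0.0619). RAD54B was at -0.05 (adjusted p = 0.518). Another 8 genes fell after COM without having passed the test after either agent alone: ATM, RBBP8, PALB2, XRCC2, MUS81, FANCC, FANCE and POLQ. The same overlaps over all genes were not counted. These comparisons share the BLANK libraries, so their calls are not independent. Without BLANK replicate 1 there were 2 higher and 22 lower genes. At equal depth 0 were higher and 18 lower, with DESeq2 0 and 21, and without COM replicate 3 0 and 20. RLE factors gave 1 higher and 27 lower genes, and no filter on low counts gave 0 and 28.

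**Figure D1:**
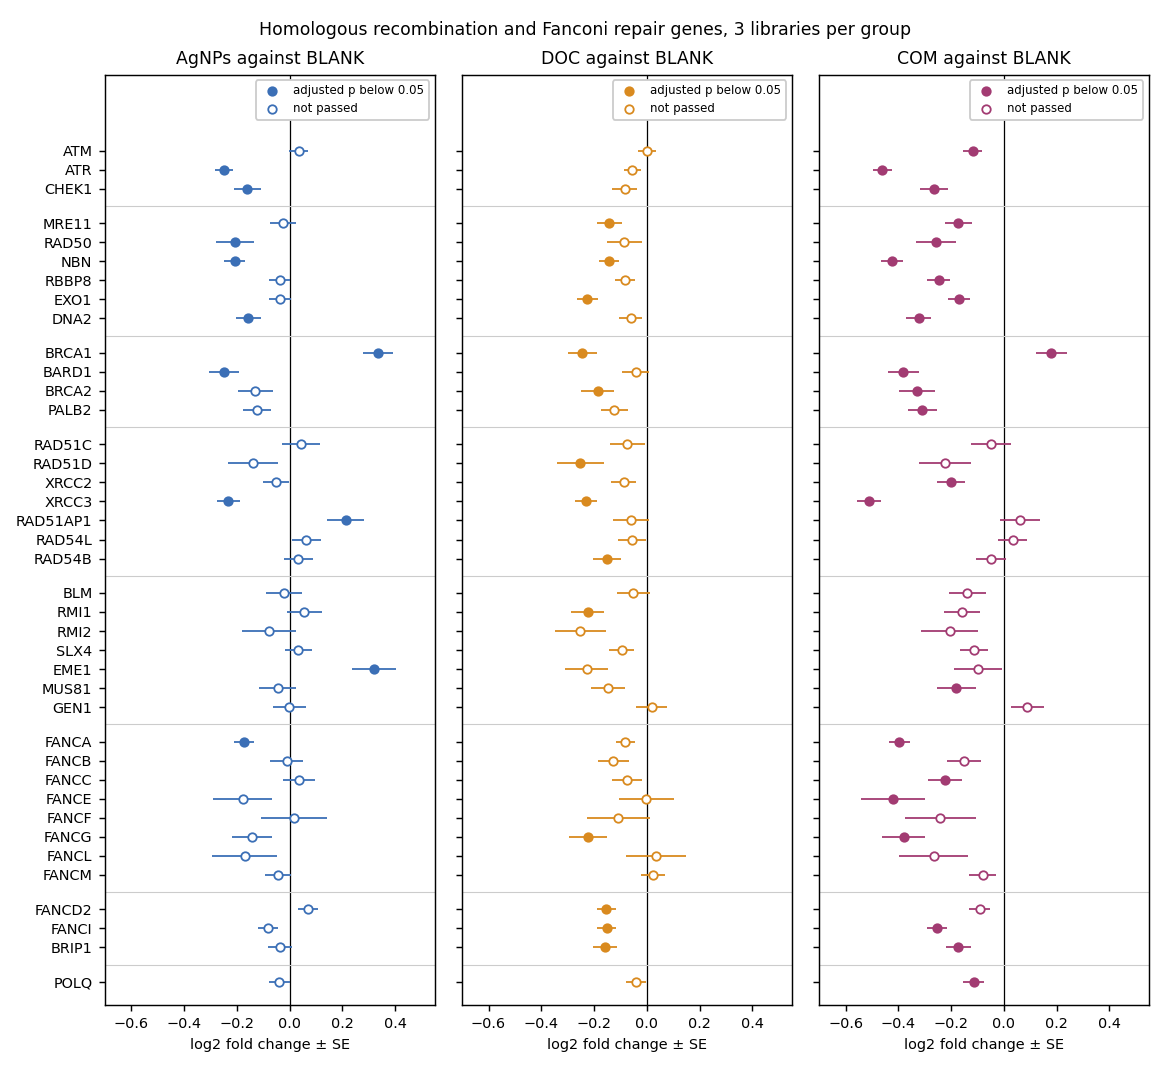
Log2 fold change ± SE (x axis) of the 39 repair genes (rows, grouped by role) after AgNPs, DOC and COM, each against BLANK, with 3 libraries per group; filled points passed an adjusted p of 0.05. The COM points lie mostly left of 0, with BRCA1 the 1 filled point to the right, and BRCA1 lies right of 0 after AgNPs and left of 0 after DOC.

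The repair genes were expressed over a wide range. On the deposited length-corrected scale (FPKM), BLANK means ran from 44.7 ± 0.594 for NBN to 2.05 ± 0.0322 for FANCF (SD, n = 3), a 21.8-fold span with a median of 11.5. NBN, RAD54L (41.5 ± 5.32) and XRCC3 (35.2 ± 1.24) led the order, with NBN and RAD54L closer to each other than the SD of RAD54L. RAD54L shares 18% of its exonic bases with LRRC41 on the other strand. In BLANK a mean of 83.6% of its counts lay on RefSeq transcripts, so its place is uncertain. RBBP8 followed at 31.4 ± 1.68 and FANCA at 27.4 ± 1.05. The tumour suppressors BRCA1 (6.15 ± 0.193) and BRCA2 (4.89 ± 0.444) lay in the lower part of the order, and RAD50, FANCE and FANCF closed it.

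**Figure D2:**
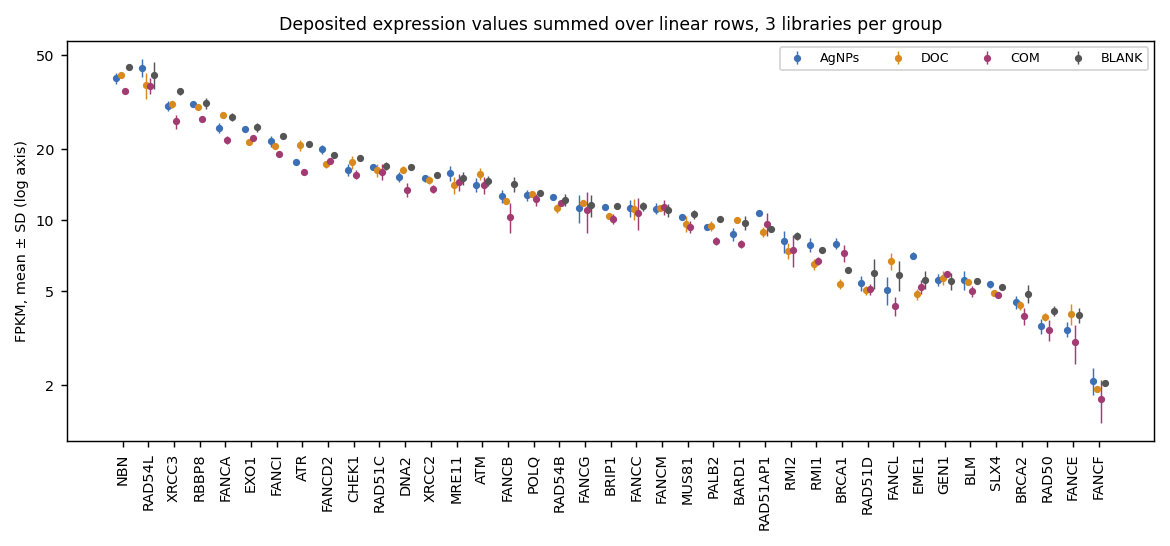
FPKM (log axis, mean ± SD of 3 libraries) of each repair gene in AgNPs, DOC, COM and BLANK, ordered by the BLANK mean. The levels run from NBN at 44.7 to FANCF at 2.05 in BLANK, a span much wider than the distances between the groups of any 1 gene.

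Among the damage kinases ATR fell most. ATR (chromosome 3, 142449235 to 142578733), which starts the checkpoint at stalled replication forks, had 127, 129 and 132 CPM in AgNPs, 144, 145 and 155 CPM in DOC, and 109, 112 and 114 CPM in COM, against 154, 154 and 154 CPM in BLANK. The AgNPs and COM libraries lay apart from each other and below all BLANK libraries, while DOC reached up to the BLANK level. The log2 change was -0.25 ± 0.03 after AgNPs (edgeR adjusted p = 3.39e-07), -0.06 ± 0.03 after DOC (adjusted p = 0.263) and -0.46 ± 0.04 after COM (adjusted p = 2.05e-13). CHEK1, the kinase that ATR activates, had 44.3, 46.6 and 48.4 CPM in AgNPs, 47.7, 52.5 and 46.8 CPM in DOC and 44.0, 41.6 and 44.0 CPM in COM, against 53.4, 51.4 and 51.1 CPM in BLANK. It was lower in every AgNPs and COM library than in any BLANK library, and DOC overlapped BLANK. CHEK1 fell by 10.5% after AgNPs (log2 -0.16 ± 0.05, edgeR adjusted p = 0.0142) and by 16.8% after COM (log2 -0.26 ± 0.05, adjusted p = 8.02e-05). Its AgNPs call ended without BLANK replicate 1 (log2 -0.13, adjusted p = 0.0798), AgNPs replicate 1 (log2 -0.12, adjusted p = 0.147) or AgNPs replicate 2 (log2 -0.16, adjusted p = 0.0537). ATM, the kinase that answers double-strand breaks, had 148, 153 and 154 CPM in AgNPs, 146, 145 and 154 CPM in DOC and 134, 137 and 139 CPM in COM, against 147, 154 and 143 CPM in BLANK. COM was the 1 group that did not overlap BLANK, and ATM fell by 7.83% there (log2 -0.12 ± 0.04, edgeR adjusted p = 0.00663). This call ended without BLANK replicate 2 (log2 -0.08, adjusted p = 0.0858) and at equal depth.

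All 6 end resection genes fell after COM, 3 fell after AgNPs and 3 after DOC. Over all genes tested 24.5% fell after COM, 16% after AgNPs and 9.81% after DOC. NBN (chromosome 8, 89933331 to 89984667), which ties the break-sensing complex to ATM, had 109, 109 and 114 CPM in AgNPs, 116, 115 and 116 CPM in DOC and 104, 91.1 and 91.0 CPM in COM, against 127, 132 and 124 CPM in BLANK. Every treated library lay below every BLANK library, and NBN and XRCC3 were the 2 genes that fell after each of the 3 treatments. The NBN log2 change was -0.21 ± 0.04 after AgNPs (edgeR adjusted p = 8.09e-05), -0.14 ± 0.04 after DOC (adjusted p = 0.00737) and -0.42 ± 0.04 after COM (adjusted p = 8.88e-11). Without BLANK replicate 2 the DOC call of NBN ended (log2 -0.12, adjusted p = 0.0666). It also ended with RefSeq transcripts alone and at equal depth. EXO1, an exonuclease that lengthens the single-stranded tail, had 79.6, 77.8 and 81.7 CPM in AgNPs, 71.2, 70.3 and 68.2 CPM in DOC and 73.2, 70.0 and 74.5 CPM in COM, against 85.7, 81.4 and 77.9 CPM in BLANK. The DOC and COM libraries were all below BLANK and the AgNPs libraries overlapped it. EXO1 changed by -0.22 ± 0.04 after DOC (edgeR adjusted p = 0.000127) and -0.17 ± 0.04 after COM (adjusted p = 0.00126) on the log2 scale. Its COM call ended at equal depth.

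DNA2, the nuclease and helicase that works in parallel with EXO1, followed the other pattern. Its log2 change was -0.16 ± 0.05 after AgNPs and -0.32 ± 0.05 after COM, both calls, and -0.06 ± 0.04 after DOC, which did not pass; the AgNPs call ended without BLANK replicate 1 (log2 -0.13, edgeR adjusted p = 0.0501) or AgNPs replicate 1 (log2 -0.11, adjusted p = 0.128). RBBP8, which codes for CtIP and starts the trimming with the MRE11 nuclease, passed only after COM, at -0.25 ± 0.04. MRE11 was at -0.14 ± 0.05 after DOC and -0.17 ± 0.05 after COM, and both calls ended without BLANK replicate 1 (log2 -0.10 and -0.12, adjusted p = 0.218 and 0.0653). The DOC call of MRE11 also ended without BLANK replicate 3, DOC replicate 2 or DOC replicate 3, with log2 changes of -0.13, -0.15 and -0.14. It ended further with DESeq2, limma-trend, only the groups compared, RefSeq transcripts alone and at equal depth. RAD50, which holds the DNA ends together, was at -0.21 ± 0.07 after AgNPs and -0.26 ± 0.08 after COM, with overlapping libraries in both comparisons. Without BLANK replicate 1 its AgNPs and COM calls ended (log2 -0.14 and -0.19, adjusted p = 0.195 and 0.0526), and the AgNPs call also ended without BLANK replicate 2, AgNPs replicate 1 or AgNPs replicate 2 (log2 -0.20, -0.21 and -0.14). With DESeq2 and at equal depth the AgNPs call of RAD50 ended too. RAD50 shares 90.6% of its exonic bases with a readthrough gene on the same strand, so its value is uncertain.

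BRCA1 and BARD1 code for the partners in a ubiquitin ligase, and after AgNPs and COM BRCA1 rose while BARD1 fell. BRCA1 (chromosome 17, 43044295 to 43170327) had 51.6, 45.6 and 49.95 CPM in AgNPs, 33.9, 31.2 and 33.4 CPM in DOC and 43.0, 41.8 and 47.3 CPM in COM, against 41.0, 38.2 and 37.4 CPM in BLANK. None of the 3 treated groups overlapped BLANK: AgNPs and COM lay above it and DOC below. The log2 change was 0.34 ± 0.06 after AgNPs (26.2% higher, edgeR adjusted p = 1.05e-05), -0.24 ± 0.06 after DOC (adjusted p = 0.00216) and 0.18 ± 0.06 after COM (adjusted p = 0.0111). The COM call of BRCA1 ended without COM replicate 3 (log2 0.12, adjusted p = 0.134), with DESeq2 (log2 0.17, adjusted p = 0.0553), with no filter on low counts (log2 0.13, adjusted p = 0.0779) and at equal depth (log2 0.12, adjusted p = 0.145). The AgNPs and DOC calls held under all 21 alternatives. FPKM of BRCA1 gave the same order, with 7.98 ± 0.412 in AgNPs, 5.40 ± 0.261 in DOC, 7.27 ± 0.614 in COM and 6.15 ± 0.193 in BLANK (SD, n = 3).

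BARD1 (chromosome 2, 214725646 to 214809683) had 30.6, 30.1 and 29.03 CPM in AgNPs, 33.3, 34.6 and 35.8 CPM in DOC and 27.2, 26.4 and 28.4 CPM in COM, against 35.2, 36.3 and 35.2 CPM in BLANK. AgNPs and COM were below every BLANK library and DOC overlapped BLANK. BARD1 fell by 15.8% after AgNPs (log2 -0.25 ± 0.06, edgeR adjusted p = 0.000623) and by 23.2% after COM (log2 -0.38 ± 0.06, adjusted p = 1.32e-06), and was at -0.04 ± 0.05 after DOC. BRCA2, which acts at the strand exchange step, had 52.5, 53.4 and 47.1 CPM in AgNPs, 48.6, 47.3 and 51.4 CPM in DOC and 48.2, 41.3 and 44.0 CPM in COM, against 61.9, 51.8 and 53.9 CPM in BLANK. BLANK replicate 1 stood well above the other BLANK libraries for BRCA2. DOC and COM lay below all of them, and AgNPs overlapped BLANK. The log2 change was -0.13 ± 0.06 after AgNPs (edgeR adjusted p = 0.144), -0.19 ± 0.06 after DOC (adjusted p = 0.0411) and -0.33 ± 0.07 after COM (adjusted p = 0.00035). The DOC call of BRCA2 ended under 12 of 21 alternatives. Among them were leaving out BLANK replicate 1 (log2 -0.10, adjusted p = 0.248), and BLANK replicate 3, DOC replicates 1 and 2, AgNPs replicates 1 and 2 or COM replicate 3 (log2 -0.21 to -0.16). PALB2, the bridge between BRCA1 and BRCA2, fell by 19.2% after COM (log2 -0.31 ± 0.06) and did not pass after AgNPs or DOC (both at -0.12).

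**Figure D3:**
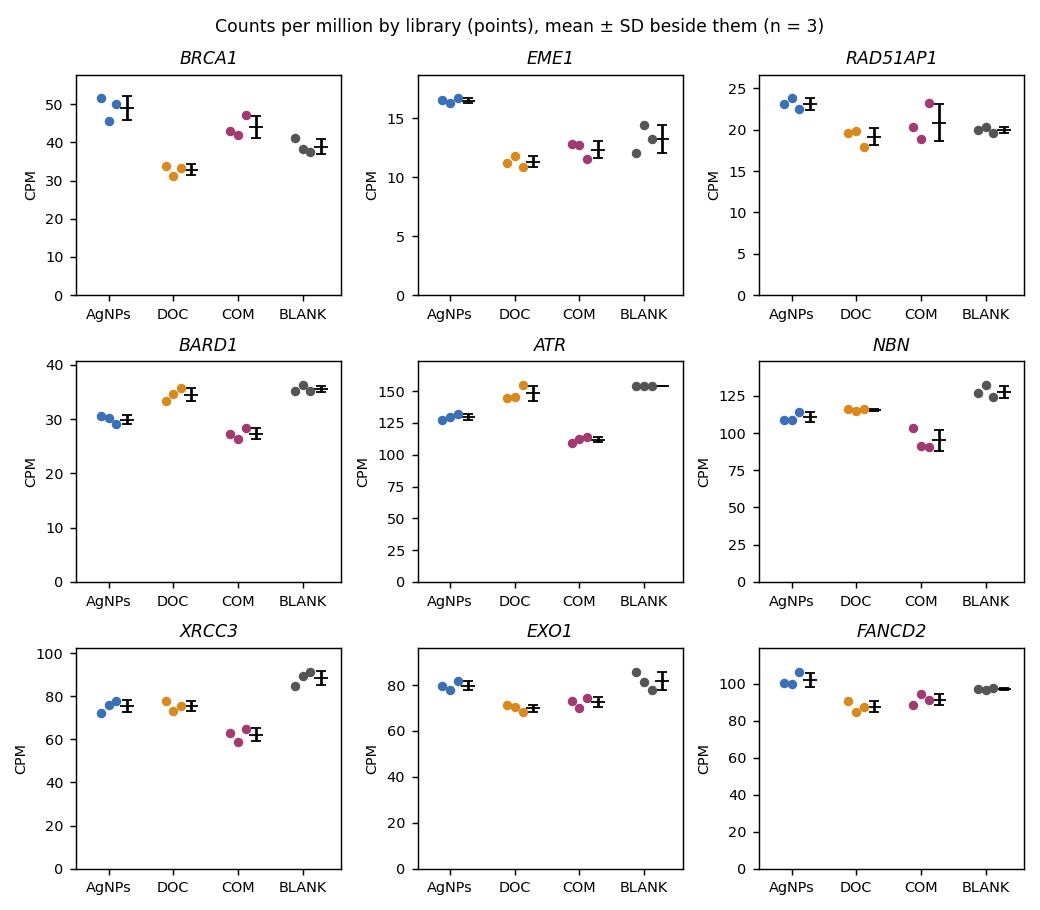
CPM (y axis from 0) in each library (points) with mean ± SD (n = 3) for 9 repair genes in AgNPs, DOC, COM and BLANK. BRCA1 is highest in AgNPs and lowest in DOC, while ATR, NBN, XRCC3 and BARD1 are lowest in COM.

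The sequences before the starts of BRCA1, BARD1, RAD51AP1 and XRCC3 are given because BRCA1 rose while its partner BARD1 fell after AgNPs, and RAD51AP1 rose while XRCC3 fell. They are 250-base windows that end at the base before a RefSeq start (GRCh38.p14), written in the direction of the gene. Capitals mark matches, on either strand, to 3 kinds of word: the word CCAAT, which reads ATTGG when it lies on the other strand, the E2F words TTTGGCGC, TTTGCCGC, TTTCGCGC, TTTCCCGC and GGCGGGAA, and the ETS word CCGGAAGT. TTTCCCGC read on the other strand overlaps GGCGGGAA in part. The BRCA1 window (chr17:43125365-43125614, minus strand) is 1 of 2 for this gene, and the other held none of the words.
BRCA1: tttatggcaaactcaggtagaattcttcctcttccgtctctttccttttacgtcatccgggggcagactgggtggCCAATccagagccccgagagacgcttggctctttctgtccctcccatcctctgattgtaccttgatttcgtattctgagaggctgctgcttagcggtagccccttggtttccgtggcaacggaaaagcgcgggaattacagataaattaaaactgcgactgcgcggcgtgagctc
BARD1 (chr2:214809684-214809933, minus strand): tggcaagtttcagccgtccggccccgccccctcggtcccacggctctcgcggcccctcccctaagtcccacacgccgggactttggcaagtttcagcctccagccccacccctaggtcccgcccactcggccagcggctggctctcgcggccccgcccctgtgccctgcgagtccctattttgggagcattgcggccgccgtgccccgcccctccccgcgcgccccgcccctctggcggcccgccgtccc
RAD51AP1 (chr12:4538640-4538889, plus strand): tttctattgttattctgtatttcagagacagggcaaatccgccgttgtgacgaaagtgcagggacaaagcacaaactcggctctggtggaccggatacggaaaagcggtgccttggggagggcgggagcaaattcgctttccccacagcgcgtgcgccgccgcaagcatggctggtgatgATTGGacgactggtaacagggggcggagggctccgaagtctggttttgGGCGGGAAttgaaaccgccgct
XRCC3 (chr14:103715452-103715701, minus strand): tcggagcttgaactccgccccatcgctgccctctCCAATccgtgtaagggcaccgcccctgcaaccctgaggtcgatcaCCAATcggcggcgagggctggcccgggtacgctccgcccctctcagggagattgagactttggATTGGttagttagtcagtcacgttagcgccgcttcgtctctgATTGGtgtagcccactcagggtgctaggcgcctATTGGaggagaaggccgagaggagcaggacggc
The BRCA1 window held 1 CCAAT, starting 175 bases before the start, and the BARD1 window held none of the words. The RAD51AP1 window held GGCGGGAA 22 bases before the start and ATTGG 70 bases before it. The XRCC3 window held 5 matches to CCAAT, 2 read forward and 3 on the other strand, from 216 to 33 bases before the start.

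RefSeq windows were matched for 34 of the 39 genes, 46 windows in all. An E2F word was found in 9 of the 46 (19.6%), against 4.76% of all 35116 windows, in BLM, FANCA, FANCC, FANCL, RAD51AP1, RAD54L and RMI1. The ETS word was in 8 windows (17.4%, against 3.42% of all), those of BRCA2, EME1, FANCD2, GEN1, MRE11, PALB2, POLQ and RAD50. CCAAT was in 20 windows (43.5%, against 32% of all). TTTGAA, the core of the cell cycle homology region bound by the DREAM and MuvB complexes, was in 4 windows (8.7%, against 13.3% of all), of ATM, BRIP1, FANCC and POLQ. These are descriptions of the letters. Of the 8 genes with the ETS word, BRCA2, MRE11, PALB2, POLQ and RAD50 fell after COM, and EME1, FANCD2 and GEN1 did not pass there (log2 -0.10, -0.09 and 0.09). Over the whole list 22 of the 39 genes fell after COM, and over all genes tested 24.5%. Of the 7 genes with an E2F word, FANCA and FANCC fell there, and BLM, FANCL, RAD51AP1, RAD54L and RMI1 did not pass. After AgNPs EME1 and RAD51AP1 rose, and RAD50 and FANCA fell. Whether the words go with the changes was not tested.

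Of the genes of DNA strand exchange XRCC3 changed most, with the largest log2 change after COM of the 39 genes. XRCC3 (chromosome 14, 103697617 to 103715451), which works with RAD51C at stalled forks and late recombination intermediates, had 72.2, 76.2 and 77.8 CPM in AgNPs, 77.8, 73.2 and 75.6 CPM in DOC and 63.1, 58.7 and 64.9 CPM in COM, against 84.9, 89.6 and 91.3 CPM in BLANK. AgNPs and DOC shared 1 range, below BLANK and above COM, and no COM library overlapped any other group. The log2 change was -0.23 ± 0.04 after AgNPs (edgeR adjusted p = 4.18e-05), -0.23 ± 0.04 after DOC (adjusted p = 0.000106) and -0.51 ± 0.05 after COM (29.8% lower, adjusted p = 7.53e-12). XRCC3 shares 45.3% of its exonic bases with KLC1 on the other strand, and the sources do not say whether counting used the strand, so its values are uncertain to that extent. KLC1 itself was at 0.20 ± 0.04 after AgNPs (adjusted p = 0.0012), -0.06 ± 0.04 after DOC (adjusted p = 0.374) and 0.05 ± 0.04 after COM (adjusted p = 0.331). It was called lower in none of these comparisons with BLANK, but it was lower in COM than in AgNPs (log2 -0.14 ± 0.05, edgeR adjusted p = 0.0288).

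RAD51AP1, which helps the strands to pair, had 23.1, 23.8 and 22.4 CPM in AgNPs, 19.6, 19.8 and 17.96 CPM in DOC and 20.3, 18.9 and 23.3 CPM in COM, against 19.9, 20.3 and 19.6 CPM in BLANK. The AgNPs libraries were above all BLANK libraries, and DOC and COM overlapped BLANK. It rose by 0.21 ± 0.07 after AgNPs on the log2 scale (edgeR adjusted p = 0.0207), and this call ended without BLANK replicate 3 (log2 0.20, adjusted p = 0.0615) or AgNPs replicate 2 (log2 0.20, adjusted p = 0.0758) and with DESeq2 (log2 0.20, adjusted p = 0.101). It also ended with no filter on low counts and at equal depth. XRCC2, which acts with RAD51D, fell after COM (log2 -0.20 ± 0.05). RAD51D and RAD54B, the second of them a DNA translocase, passed after DOC at -0.25 ± 0.09 and -0.15 ± 0.05, near the threshold. Their calls ended under 16 and 12 of 21 alternatives. For RAD51D these included leaving out any 1 library of AgNPs or DOC, BLANK replicate 2 or 3, or COM replicate 1 or 2 (log2 -0.27 to -0.14). For RAD54B they included any 1 AgNPs library, BLANK replicate 1 or 3, or DOC replicate 2 or 3 (log2 -0.17 to -0.09). RAD54B further shares 63.3% of its exonic bases with FSBP on the same strand. RAD51C and the translocase RAD54L, which opens the DNA copy, passed in no comparison with BLANK and lay between -0.07 and 0.06.

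Of the 7 genes that dissolve or cut joined molecules, EME1 was the 1 that rose. EME1, the partner of the nuclease MUS81, had 16.5, 16.3 and 16.7 CPM in AgNPs, 11.2, 11.8 and 10.8 CPM in DOC and 12.8, 12.7 and 11.5 CPM in COM, against 12.02, 14.4 and 13.2 CPM in BLANK. The AgNPs libraries were tightly grouped above all others, DOC was below BLANK in every library, and COM overlapped BLANK. The log2 change was 0.32 ± 0.08 after AgNPs (24.8% higher, edgeR adjusted p = 0.00257), -0.23 ± 0.08 after DOC (adjusted p = 0.0522) and -0.10 ± 0.09 after COM (adjusted p = 0.388). The AgNPs call of EME1 ended at equal depth (log2 0.23, adjusted p = 0.108). Its own partner MUS81 did not follow it: MUS81 was at -0.05 ± 0.07 after AgNPs and fell after COM (log2 -0.18 ± 0.07, adjusted p = 0.0379), a call that ended under 7 of 21 alternatives, including without BLANK replicate 2 or 3 or COM replicate 1 or 3 (log2 -0.14, -0.18, -0.14 and -0.17). RMI1, which acts with the helicase BLM to dissolve double junctions, fell by 14.4% after DOC (log2 -0.22 ± 0.06, adjusted p = 0.0119). This call ended at equal depth and without BLANK replicate 1 (log2 -0.20, adjusted p = 0.0576). BLM, RMI2, the nuclease scaffold SLX4 and the resolvase GEN1 passed after no treatment.

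In the Fanconi core complex FANCA (chromosome 16, 89737549 to 89816647), the gene most often mutated in Fanconi anaemia, had 84.6, 81.6 and 83.3 CPM in AgNPs, 89.7, 88.7 and 87.7 CPM in DOC and 70.8, 74.0 and 69.1 CPM in COM, against 93.0, 91.9 and 96.6 CPM in BLANK. The 4 groups did not overlap, in the order COM, AgNPs, DOC and BLANK. The log2 change was -0.17 ± 0.04 after AgNPs (edgeR adjusted p = 0.000455), -0.08 ± 0.04 after DOC (adjusted p = 0.12) and -0.40 ± 0.04 after COM (adjusted p = 1.88e-10). FANCA shares 22.4% of its exonic bases with ZNF276 on the other strand, and ZNF276 had nearly the same changes, at -0.21 ± 0.04, -0.07 ± 0.04 and -0.39 ± 0.05 after AgNPs, DOC and COM. Reads on the shared bases cannot be told apart without the strand, so the FANCA values are uncertain to that extent. FANCC, FANCE and FANCG, further core subunits, also fell after COM (log2 -0.22 ± 0.06, -0.42 ± 0.12 and -0.38 ± 0.08). The FANCE call ended at equal depth and without COM replicate 3 (log2 -0.29, adjusted p = 0.0696), the library with its lowest level of 5.84 CPM. FANCG also passed after DOC (log2 -0.22 ± 0.07, adjusted p = 0.0297), and that call ended without BLANK replicate 2 or 3 or DOC replicate 2 or 3 (log2 -0.19, -0.21, -0.24 and -0.14). It also ended with DESeq2, with limma-trend and at equal depth. On the FPKM scale FANCG was not lower in DOC, at 11.8 ± 0.34 against 11.6 ± 1.21 in BLANK (SD, n = 3). Nor was FANCA, at 28.1 ± 0.14 in DOC against 27.4 ± 1.05 in BLANK. After COM the FPKM of FANCG (11.03 ± 2.19) and FANCC (10.77 ± 1.64, against 11.46 ± 0.552 in BLANK) were lower only within the SD. Their COM falls were thus not clear on this scale. FANCA (21.96 ± 0.801) and FANCE (3.04 ± 0.567, against 3.96 ± 0.276 in BLANK) were lower in COM by more than the SD. FANCB, FANCF, the ubiquitin ligase FANCL and the fork translocase FANCM passed after no treatment.

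After DOC, FANCD2 and FANCI, the substrates of the core complex, and the helicase BRIP1 all fell, by 10.1, 10.03 and 10.4%, and of the 8 core genes FANCG did. Over all genes tested 9.81% fell after DOC. Of the 8 core genes 6 had a log2 change below 0 after DOC, and 3 had an unadjusted edgeR p below 0.05. Whether the groups of genes differ in this was not tested. FANCD2 (chromosome 3, 10026437 to 10101932) had 100.1, 99.6 and 106 CPM in AgNPs, 90.6, 84.4 and 87.4 CPM in DOC and 88.6, 94.3 and 90.9 CPM in COM, against 97.2, 96.8 and 97.9 CPM in BLANK. All AgNPs libraries were above BLANK and all DOC and COM libraries below it. The log2 change of FANCD2 was 0.07 ± 0.04 after AgNPs (edgeR adjusted p = 0.189), -0.15 ± 0.04 after DOC (adjusted p = 0.00336) and -0.09 ± 0.04 after COM (adjusted p = 0.053). The DOC call of FANCD2 ended at equal depth. FANCI, the partner of FANCD2 in the clamp, had 96.0, 101 and 106 CPM in AgNPs, 97.3, 93.7 and 97.1 CPM in DOC and 87.6, 92.2 and 88.9 CPM in COM, against 106, 106 and 109 CPM in BLANK. Every treated library lay below every BLANK library, and AgNPs overlapped DOC. FANCI was at -0.08 ± 0.04 after AgNPs (edgeR adjusted p = 0.105). It fell after DOC (log2 -0.15 ± 0.04, edgeR adjusted p = 0.003) and after COM (log2 -0.25 ± 0.04, adjusted p = 1.37e-06). FANCI shares 8.33% of its exonic bases with POLG on the other strand, so its values are uncertain to that extent. POLG was at -0.16 ± 0.06 after DOC, which did not pass, and fell after COM (log2 -0.25 ± 0.07, edgeR adjusted p = 0.00391). BRIP1, which unwinds DNA with BRCA1, was at -0.16 ± 0.04 after DOC and -0.17 ± 0.05 after COM. Its DOC call ended at equal depth and without DOC replicate 3 (log2 -0.13, adjusted p = 0.0763). POLQ, the polymerase of the backup route that joins ends by short homologies, was at -0.04 ± 0.04 after AgNPs and after DOC. It fell by 7.64% after COM (log2 -0.11 ± 0.04, edgeR adjusted p = 0.0166), a call that ended without BLANK replicate 2, COM replicate 1 or COM replicate 2 (log2 -0.09, -0.09 and -0.11). The call also ended with RefSeq transcripts alone and at equal depth.

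Set against AgNPs alone, COM was lower for 15 of the 39 genes and higher for 0 (12% lower and 9.87% higher over all genes tested), with a median of -0.15. By limma-trend 21 were lower and 0 higher, by DESeq2 11 and 0, and 22 of the 39 had an unadjusted p below 0.05, against 33% of all genes. EME1 had the largest of these changes, at -0.42 ± 0.09 (edgeR adjusted p = 0.00111), followed by XRCC3 at -0.28 ± 0.05 (adjusted p = 5.57e-05). Both are uncertain to the extent of their exon overlaps on the other strand. LRRC59, which shares 10.3% of the exonic bases of EME1, was also lower here (log2 -0.10 ± 0.03, edgeR adjusted p = 0.00458). So was KLC1, which overlaps XRCC3 (log2 -0.14 ± 0.05, adjusted p = 0.0288). FANCA, NBN and ATR were lower in COM by 14.3, 13.9 and 13.7% (edgeR adjusted p = 0.000195, 0.000394 and 6.59e-05). FANCA is uncertain in the same way, and ZNF276, which overlaps it, was also lower (log2 -0.18 ± 0.05, edgeR adjusted p = 0.0109). BRCA1 was at -0.16 in COM against AgNPs and did not pass (edgeR adjusted p = 0.0621), although 6 of 21 alternatives called it lower.

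Set against DOC alone, COM was lower for 12 of the 39 genes and higher for BRCA1 (18.5% lower and 18.1% higher over all genes tested). BRCA1 was 34.1% higher in COM than in DOC (log2 0.42 ± 0.06, edgeR adjusted p = 5.93e-07), with every COM library above every DOC library. ATR was lower in COM by 24.5% (log2 -0.41 ± 0.04, adjusted p = 1.28e-11) and BARD1 by 20.9% (log2 -0.34 ± 0.06, adjusted p = 2e-05). FANCA, NBN and XRCC3 were lower by 19.6, 17.7 and 17.6% (edgeR adjusted p = 7.44e-08, 1.34e-06 and 7.16e-06). ZNF276 was also lower (log2 -0.31 ± 0.05, edgeR adjusted p = 1.8e-06), and FANCA is uncertain to the extent of its exon overlap with it. In all, 9 genes were lower in COM than in each of AgNPs, DOC and BLANK: ATM, ATR, DNA2, FANCA, FANCI, NBN, PALB2, RBBP8 and XRCC3. How many of all genes did so was not counted. The FANCI call against DOC ended under 14 of 21 alternatives, including without any 1 BLANK library, AgNPs replicate 2 or 3, DOC replicate 1 or 3, or COM replicate 1 or 3, with an edgeR adjusted p of up to 0.274 and a log2 change of -0.10 to -0.07. Among the 9, single libraries also ended the calls of DNA2 and PALB2 against AgNPs, without AgNPs replicates 2 and 3 or COM replicate 3 for DNA2 (log2 -0.14, -0.16 and -0.11), and AgNPs replicate 1 or COM replicate 3 for PALB2 (log2 -0.17 and -0.16). Against DOC they ended those of ATM, without DOC replicate 3 or COM replicate 1 (log2 -0.09 and -0.10), and PALB2, without DOC replicate 3 or COM replicate 3 (log2 -0.15 and -0.16).

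The departure of COM from the sum of both agents, tested as the DOC effect with AgNPs minus that without, passed for 0 of the 39 genes by edgeR, DESeq2 and limma-trend, against 1.11% of all genes by edgeR. At an unadjusted p below 0.05 there were 5 of the 39 (12.8%), against 10.1% of all genes, so this count was near the share over all genes. The 5 values were negative: ATR (log2 -0.16 ± 0.05, edgeR adjusted p = 0.159), ATM (-0.15 ± 0.05, adjusted p = 0.179), FANCA (-0.14 ± 0.06), RBBP8 (-0.13 ± 0.06) and FANCC (-0.18 ± 0.09). Missing the threshold does not show that the effects add up.

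The single agents also differed from each other. Of the 39 genes 7 were higher and 2 lower in AgNPs than in DOC (13.7% higher and 11.9% lower over all genes tested). BRCA1 was 1.495-fold higher in AgNPs (log2 0.58 ± 0.06, edgeR adjusted p = 6.4e-10) and EME1 1.46-fold higher (log2 0.55 ± 0.09, adjusted p = 5.63e-06). FANCD2 and EXO1 were higher by 16.6 and 14.1% (adjusted p = 3.28e-05 and 0.000846), and RMI1, RAD51AP1 and RAD54B were also higher, at log2 0.28, 0.27 and 0.18. ATR and BARD1 were the 2 genes lower in AgNPs, by 12.6 and 13.3% (log2 -0.19 ± 0.03 and -0.21 ± 0.06, adjusted p = 4.14e-05 and 0.00621). The BARD1 call ended without AgNPs replicate 3 (log2 -0.18, adjusted p = 0.0528), and the RAD54B call without AgNPs replicate 1 (log2 0.17, adjusted p = 0.0648), AgNPs replicate 2 (log2 0.18, adjusted p = 0.0528) or DOC replicate 3 (log2 0.14, adjusted p = 0.102). Both calls also ended at equal depth, and that of RAD54B with DESeq2.

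Cell division genes changed in the same libraries. Of 30 mitosis genes 29 fell after AgNPs, 8 after DOC and 28 after COM, and 0 rose, with median log2 changes of -0.40, -0.06 and -0.51. Of 38 replication genes 23, 26 and 33 fell and 1, 0 and 2 rose, with medians of -0.18, -0.20 and -0.40. MCM7, a subunit of the replicative helicase, was at -0.92 ± 0.03 after AgNPs and -1.25 ± 0.03 after COM, and MKI67, a marker of cycling cells, at -0.84 ± 0.03 and -1.23 ± 0.03. CDKN1A, which codes for the cell cycle inhibitor p21, rose by 2.08 ± 0.08, 0.54 ± 0.09 and 2.97 ± 0.07 after AgNPs, DOC and COM. The part of fewer cycling cells in the changes of the repair genes was not tested, and in bulk samples fewer cells that express a gene and less RNA per cell cannot be told apart.

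Further genes of the same pathways gave the following counts. Of 34 other homologous recombination genes 3 rose (8.82%) and 4 fell (11.8%) after AgNPs, both below the shares of 14.9% and 16% over all genes. After DOC 0 rose and 5 fell (14.7%, against 9.81% of all genes), and after COM 5 rose (14.7%, against 25.1%) and 16 fell (47.1%, against 24.5%). HROB, which loads the MCM8 and MCM9 helicase, rose with BRCA1 after AgNPs (log2 0.36 ± 0.07) and after COM (log2 0.45 ± 0.07), while BRCC3, a deubiquitinase of a BRCA1 complex, fell (log2 -0.35 ± 0.04 and -0.45 ± 0.04). Of 15 other Fanconi genes 5, 1 and 10 fell after AgNPs, DOC and COM (33.3, 6.67 and 66.7%) and 0 rose after any of them. UBE2T, the ubiquitin-conjugating enzyme that works with FANCL, was at -0.34 ± 0.09 after AgNPs, and FAAP100, a core subunit, was lower after each treatment (log2 -0.19 ± 0.05, -0.15 ± 0.04 and -0.38 ± 0.05). Among 15 end joining genes, the competing repair route, 9, 6 and 8 fell (60.0, 40.0 and 53.3%) and 2, 0 and 1 rose. The highest log2 change after AgNPs was 0.84, taken over all 15 genes and not only over those that passed. Those that fell included PRKDC (log2 -0.31 ± 0.02, -0.17 ± 0.02 and -0.63 ± 0.02) and PARP1 (log2 -0.25 ± 0.03, -0.22 ± 0.03 and -0.57 ± 0.03). Of 21 other checkpoint genes 8, 6 and 12 fell (38.1, 28.6 and 57.1%) and 1, 0 and 2 rose, with the histone variant gene H2AX at -0.30 ± 0.03, -0.36 ± 0.03 and -0.61 ± 0.03.

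**Figure D4:**
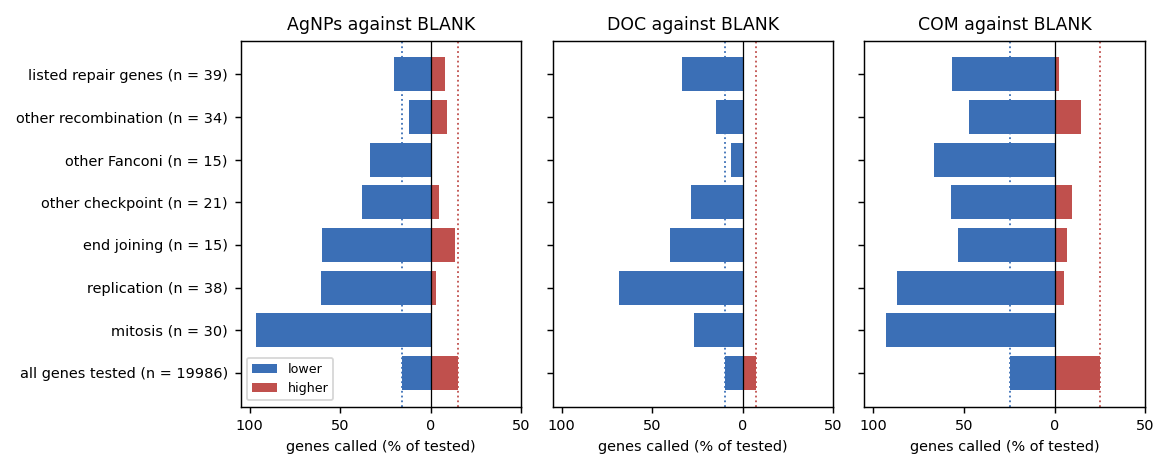
Share of genes called lower (left of 0) and higher (right of 0), in % of the genes tested, for the 39 repair genes, 6 neighbouring gene lists and all 19986 genes, after AgNPs, DOC and COM against BLANK; dotted lines mark the shares over all genes. The mitosis and replication bars reach furthest left after COM, at 28 of 30 and 33 of 38 genes, and the repair genes stand at 22 of 39.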

How the data were processed

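RNA of 12 PC3 libraries was sequenced from a BGI mRNA library kit, per the labels' protocols. The submitters' processing notes name HISAT2, Bowtie2 2.2.5, RSEM and GRCh38, without roles; strand use in counting is not given in the sources used here. The authors deposited raw expected counts for each transcript. Their expression values are FPKM on linear transcripts, a unit inferred from the deposited values since no header states it. Circular RNA rows (44096 of 221796) carry no gene and were not used, nor were 10 columns of group means.

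Counts of the 177700 linear rows were summed by gene and rounded. edgeR 4.0.16 (R 4.3.3) fitted 1 quasi-likelihood model to all 12 libraries with TMM factors and its default expression filter, which kept 19986 genes and all 39 listed. Tests were two-sided, with Benjamini-Hochberg adjustment over all genes and a threshold of 0.05, and were tested on simulated data. SE is that of the log2 change. CPM use TMM library sizes. Alternatives were DESeq2 1.42.0, limma-trend (limma 3.58.1, prior count 2, added after the data were seen), RLE factors, no filter, 1 CPM in 3 libraries, a replicate term, only the groups compared, RefSeq rows, equal depth and each library left out. A call ended where an alternative's adjusted p reached the threshold.

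The members and lists were chosen with earlier results of these data known. Named with all values are, in each comparison, up to 4 called genes each way with the smallest adjusted p and no overlap of libraries, and BRCA1, BRCA2, FANCD2, CHEK1 and ATM throughout; of the other lists, up to 3 per comparison. Gene coordinates and start windows are those of RefSeq (GRCh38.p14), and exon overlap is from GENCODE.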

Additional observations from a re-analysis of the deposited data

How the results depend on the processing

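Of 84 calls of a listed gene over the 6 pairwise comparisons, none changed sign under any of the alternatives, and 6 of 11 after AgNPs, 4 of 13 after DOC and 15 of 23 after COM held under every one. The most calls ended at equal depth (27), with DESeq2 (15) and with RefSeq transcripts alone (12). After DOC the count of listed genes was 13, but 8 with DESeq2, limma-trend or RefSeq transcripts alone, 4 at equal depth and 8 to 13 with each library left out; over all genes it was 3391, but 2156 with DESeq2, 1965 at equal depth and 2134 (without DOC replicate 2) to 4027 with libraries left out. The interaction passed for 221 genes in all, 134 with DESeq2, 127 at equal depth and 115 to 266 with libraries left out (over 1.5 times fewer without BLANK replicate 3, COM replicate 2 or 3 or any AgNPs library), and for 0 of the 39 throughout. The cause was not tested. Values that missed the threshold both ways were compared by that alone, and 166 of them changed sign. The labels do not say whether the replicate numbers pair the libraries. Same-numbered libraries correlated at -0.211 to 0.143 in their deviations from the group means, over 0.1 in 2 of 18 pairs, and other pairs at -0.192 to 0.158. These values show no sign of pairing but cannot settle how the libraries were made. A replicate block gave 11, 12 and 23 listed genes after AgNPs, DOC and COM, 15 and 12 in COM against AgNPs and DOC, 9 in AgNPs against DOC and 0 for the interaction; over all genes it gave 6039, 3206, 9812, 4224, 7198, 4966 and 176 in the same order. Depth was lowest in COM and then in AgNPs, and the smallest change that could be detected was not measured.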
